A study of Mus musculus with 2 samples.

Results

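Mitochondria carry their own ribosome, the mitoribosome, which translates the few messenger RNAs of the mitochondrial genome into core subunits of the respiratory chain and of ATP synthase. Its RNAs are encoded in mitochondrial DNA, but all of its proteins are encoded in the nucleus, made in the cytosol and imported. The large subunit (genes named Mrpl) holds the site of peptide bond formation and the exit tunnel, and the small subunit (genes named Mrps) binds and decodes the messenger RNA. In developing red cells mitochondria are needed for heme synthesis and are removed at the end of maturation.

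The mitochondrial ribosomal protein genes were taken as all genes whose symbol starts with Mrpl or Mrps. The gene table holds 84 such symbols, and the array has probes for 78 of them, out of 20659 named genes with a probe. These 78 genes are 49 of the large and 29 of the small subunit and include every protein-coding Mrpl and Mrps symbol of the table, while the 6 remaining symbols are pseudogenes with no probe of their own. Mouse fetal liver blood cells of stage E13.5 had been sorted by SoNar, a fluorescent sensor of the cytosolic NADH and NAD+ state. Cells with a high F405/F488 ratio, which compares fluorescence at a shorter and a longer wavelength, formed the SoNar-high group (strain labelled C57BL/6), and cells with a low ratio the SoNar-low group (strain labelled C57BL). How the sensor was brought into the cells, the sex of the fetuses and the number pooled are not given in the labels. Each group has 1 array of Cy3-labelled total RNA, so no p-value is given and no value carries an error between animals or sorts. Every difference below subtracts the log2 value of SoNar-low from that of SoNar-high cells, once each array had been divided by the 75th percentile of its processed signal, which was 186.5 units on the SoNar-high array and 222.2 units on the SoNar-low array. A signal slightly lower in SoNar-high cells can therefore give a positive difference. A difference of 1 is 2-fold.

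Of the 78 genes, 75 were measured, meaning that they had a probe well above background on both arrays. The scanner's own error for a single gene's difference, combined from the error it gives for each spot, was 0.20 to 0.27 over the 75 genes, with a median of 0.21. Of the probes printed 10 times, 213 were well above background on both arrays, and their spots gave a median SD of 0.15 for the difference of a spot pair. Both errors cover the hybridised sample only. Signals of different probes are not comparable as amounts of RNA, so levels of different genes are not compared. Over all 10223 measured genes the median difference was -0.08.

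Most mitochondrial ribosomal protein genes had slightly lower signal in SoNar-high cells. In such mixed samples fewer cells of a type and less RNA per cell cannot be told apart. The median of the 75 genes was -0.37, which is 1.29-fold lower, and their quartiles were -0.57 and -0.09. The difference was negative for 61 of 75 genes (81.3%), against 55.8% of all measured genes, and positive for 14. It was negative by more than the scanner error for 50 genes, positive by more than it for 5 and within it for 20. This last count was not made over all measured genes, whose quartiles were -0.45 and 0.32. It therefore does not set these genes apart from the array. Large differences were few. At least 2-fold lower were 3 of 75 genes (4.0%, beside 4.44% of all measured genes), a share near that over the array, and at least 2-fold higher were none of 75 (5.28% of all measured genes). At a size of 1.5-fold, 18 genes were lower and 1 was higher, beside 17.7% lower and 13.8% higher among all measured genes.

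**Figure D1:**
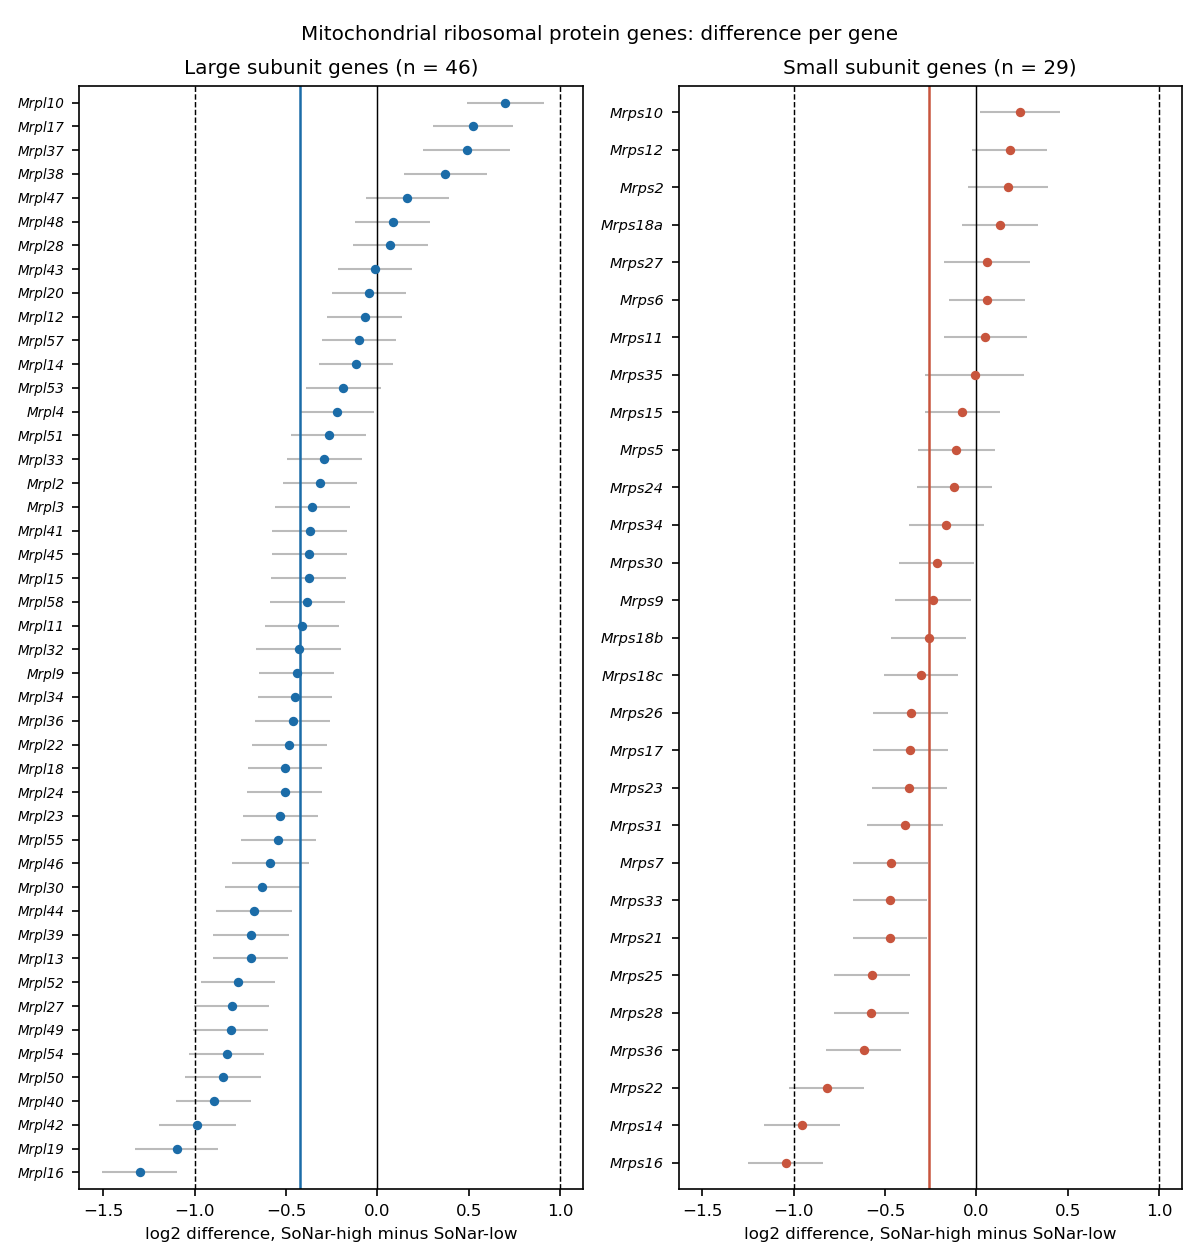
The log2 difference of SoNar-high minus SoNar-low is plotted for each measured large subunit gene (left, 46 genes) and small subunit gene (right, 29 genes), with bars for the scanner error, dashed lines at 2-fold and a coloured line at each median (-0.42 and -0.26). Points run from -1.30 (Mrpl16) to 0.70 (Mrpl10) in the large and from -1.05 (Mrps16) to 0.24 (Mrps10) in the small subunit.

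The large subunit genes were lower than the small subunit genes by a margin that was small beside the spread within either. The 46 measured large subunit genes had a median of -0.42 and the 29 measured small subunit genes a median of -0.26. The difference between these medians was -0.16, whereas the range between the quartiles was 0.53 in the large and 0.46 in the small subunit. Negative differences were found for 39 of 46 large subunit genes (84.8%) and 22 of 29 small subunit genes (75.9%). The means, -0.38 with an SD over genes of 0.42 for the large and -0.28 with an SD of 0.34 for the small subunit, differed by -0.10. Genes are not replicates, so this difference was not tested.

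A few Mrps symbols do not follow the subunit in their name. In the mammalian mitoribosome the products of Mrps18a and Mrps30 sit in the large subunit, and that of Mrps36 is known as a component of the 2-oxoglutarate dehydrogenase complex. Mrps18a had a processed signal of 312 in SoNar-high cells and 339.6 in SoNar-low cells (0.13), Mrps30 had 425 in SoNar-high and 588 in SoNar-low (-0.22), and Mrps36 had 403 in SoNar-high and 736 in SoNar-low (-0.62). Another 5 mitoribosomal proteins carry other symbols. Among them, Ptcd3, a protein with pentatricopeptide repeats, had 2051 in SoNar-high cells and 3770 in SoNar-low cells (-0.63), and Chchd1 had 4174 in SoNar-high and 7520.3 in SoNar-low (-0.60). Dap3, a GTP-binding protein of the small subunit, had 3569 in SoNar-high and 5159 in SoNar-low (-0.28), Aurkaip1 had 2663 in SoNar-high and 3572 in SoNar-low (-0.17), and Gadd45gip1, of the large subunit, had 1086 in SoNar-high and 1200 in SoNar-low (0.11). With the proteins placed by structure, the medians were -0.38 for the large and -0.29 for the small subunit, and the difference between them was -0.09.

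Among large subunit genes, Mrpl16 had the most negative difference. It encodes the counterpart of a bacterial protein near the tRNA sites. Its processed signal was 507 on the SoNar-high array, against 1489 on the SoNar-low array, a difference of -1.30 or 2.46-fold lower. Mrpl19, the counterpart of a bacterial protein at the interface of the subunits, had 109.7 in SoNar-high cells and 279.9 in SoNar-low cells (-1.10, 2.14-fold lower). Both genes have a single probe here, so neither difference has a second probe beside it. Mrpl42, a protein with no bacterial counterpart, was just short of 2-fold with 206 in SoNar-high cells and 486 in SoNar-low cells (-0.99).

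Behind these came Mrpl40 (528 in SoNar-high cells and 1171 in SoNar-low cells, -0.90) and Mrpl50 (305 in SoNar-high, 651 in SoNar-low, -0.84). Mrpl54 had 465 in SoNar-high cells and 981 in SoNar-low cells (-0.83), Mrpl49 had 328 in SoNar-high and 683 in SoNar-low (-0.80) and Mrpl27 had 761 in SoNar-high and 1576 in SoNar-low (-0.80). Of these 8 most negative large subunit genes, 5 encode proteins with no bacterial counterpart, and Mrpl27 is the counterpart of the bacterial protein that reaches the peptidyl transferase centre. The 19 large subunit genes with no bacterial counterpart had a median of -0.38 and the 27 measured ones with a counterpart -0.43. At least 1.5-fold lower were 9 of the 19 and 5 of the 27, beside 17.7% of all measured genes, and the lower quartiles were -0.78 and -0.52. These counts rest on the brightest probe of each gene. By the median over probes, Mrpl40 (-0.53), Mrpl49 (-0.53) and Mrpl27 (-0.47) fell short of 1.5-fold. The difference between these sets was not tested.

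In the other direction, Mrpl10 had the most positive difference. Its product forms the base of the flexible stalk that recruits translation factors. It had 478 on the SoNar-high array, against 351 on the SoNar-low array (0.70, 1.62-fold higher), and its second probe gave 0.62. Mrpl17 had 202 in SoNar-high cells and 167 in SoNar-low cells (0.52), Mrpl37 had 159 in SoNar-high and 135 in SoNar-low (0.49) and Mrpl38 had 187 in SoNar-high and 172 in SoNar-low (0.37). Mrpl47 followed with 153 in SoNar-high and 163 in SoNar-low (0.16), a size within the scanner error. Of the other stalk genes, Mrpl12, which forms the stalk itself, had 1301 in SoNar-high cells and 1628 in SoNar-low cells (-0.07), and Mrpl11, at its base, had 1659.9 in SoNar-high and 2631 in SoNar-low (-0.41). The 3 stalk genes thus lay on both sides of 0.

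The central protuberance, the part of the large subunit that faces the head of the small one, had a median of -0.54 over 9 genes, of which 7 were negative and none was 2-fold lower. The negative share (77.8%) was near that of all 75 genes (81.3%), beside 55.8% of all measured genes, of which 4.44% were at least 2-fold lower. Besides Mrpl40 and Mrpl27 it holds Mrpl52 (882 in SoNar-high cells and 1785 in SoNar-low cells, -0.76), Mrpl46 (206 in SoNar-high, 369 in SoNar-low, -0.59) and Mrpl55 (942 in SoNar-high, 1633 in SoNar-low, -0.54). It also holds Mrpl18 (1125 in SoNar-high, 1903 in SoNar-low, -0.51), Mrpl58, a peptidyl-tRNA hydrolase built into the ribosome (1017 in SoNar-high, 1581 in SoNar-low, -0.38), and Mrpl48 (1514 in SoNar-high, 1702 in SoNar-low, 0.08). The positive members were Mrpl38 and Mrpl48.

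The exit tunnel and membrane contact genes had a median of -0.50 over 8 genes, of which 6 (75%) were negative, beside 81.3% of all 75 genes and 55.8% of all measured genes. Mrpl39 had 335 in SoNar-high cells and 644 in SoNar-low cells (-0.69), and Mrpl44, which has a ribonuclease III-like fold, had 323 in SoNar-high and 615 in SoNar-low (-0.68). Mrpl45, which contacts the inner membrane, had 547 in SoNar-high cells and 844 in SoNar-low cells (-0.37). Mrpl23 (1489 in SoNar-high, 2563 in SoNar-low, -0.53), Mrpl24 (1105 in SoNar-high, 1872 in SoNar-low, -0.51) and Mrpl22 (561 in SoNar-high, 933 in SoNar-low, -0.48) surround the tunnel exit. The value of Mrpl22 is that of its brighter probe, and its second probe had the opposite sign (0.66), which gives a median over probes of 0.09. Mrpl17 and Mrpl47 were the positive members of this set.

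The 5 brightest large subunit probes showed small differences. Mrpl33 had 5198 in SoNar-high cells and 7572 in SoNar-low cells (-0.29), Mrpl57 had 3345 in SoNar-high and 4273 in SoNar-low (-0.10) and Mrpl51 had 2537 in SoNar-high and 3636 in SoNar-low (-0.27). Mrpl43 had 2456 in SoNar-high cells and 2953 in SoNar-low cells (-0.01), and Mrpl20 had 2269 in SoNar-high and 2789.8 in SoNar-low (-0.05). None of these 5 probes differed by 1.5-fold.

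Among small subunit genes, Mrps16 had the most negative difference. It encodes the counterpart of a bacterial assembly protein, and mutations of the human gene cause a respiratory chain deficiency. It had 1424 on the SoNar-high array, against 3501 on the SoNar-low array (-1.05, 2.06-fold lower). Mrps14, a protein of the small subunit head, was just short of 2-fold with 359 in SoNar-high cells and 830.3 in SoNar-low cells (-0.96). Mrps22, which has no bacterial counterpart, had 489 in SoNar-high cells and 1027 in SoNar-low cells (-0.82). The next were Mrps36 and Mrps28 (524 in SoNar-high, 931 in SoNar-low, -0.58).

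Mrps25 had 469 in SoNar-high cells and 831 in SoNar-low cells (-0.57), Mrps21 had 2847 in SoNar-high and 4709.5 in SoNar-low (-0.47) and Mrps33 had 1532 in SoNar-high and 2533 in SoNar-low (-0.47). With the 5 genes before them these are the 8 most negative of the small subunit. Of the 5 brightest small subunit probes Mrps16 was past 2-fold, and the others were Mrps21, Mrps33, Mrps26 (2544 in SoNar-high cells and 3889 in SoNar-low cells, -0.36) and Mrps23 (1495 in SoNar-high, 2298 in SoNar-low, -0.37). Mrps12, the counterpart of a bacterial protein of the decoding centre, had 1483 in SoNar-high cells and 1559 in SoNar-low cells, which became 0.18 after scaling.

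The most positive small subunit gene was Mrps10, with 204 in SoNar-high cells and 206 in SoNar-low cells (0.24). After it came Mrps12, Mrps2 (166 in SoNar-high, 175 in SoNar-low, 0.17), Mrps18a and Mrps27 (119 in SoNar-high, 136 in SoNar-low, 0.06). Apart from Mrps10, whose difference was slightly larger than its scanner error of 0.22, these positive differences lay within the scanner error. The 8 genes of the small subunit head had a median of -0.31, with Mrps14 and Mrps10 at its ends, and between them Mrps7 (852 in SoNar-high, 1405 in SoNar-low, -0.47), Mrps31 (307 in SoNar-high, 480.2 in SoNar-low, -0.39), Mrps9 (384 in SoNar-high, 539.6 in SoNar-low, -0.24) and Mrps24 (537 in SoNar-high, 695 in SoNar-low, -0.12). Their order over the head thus covered almost the whole range of the small subunit.

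**Figure D2:**
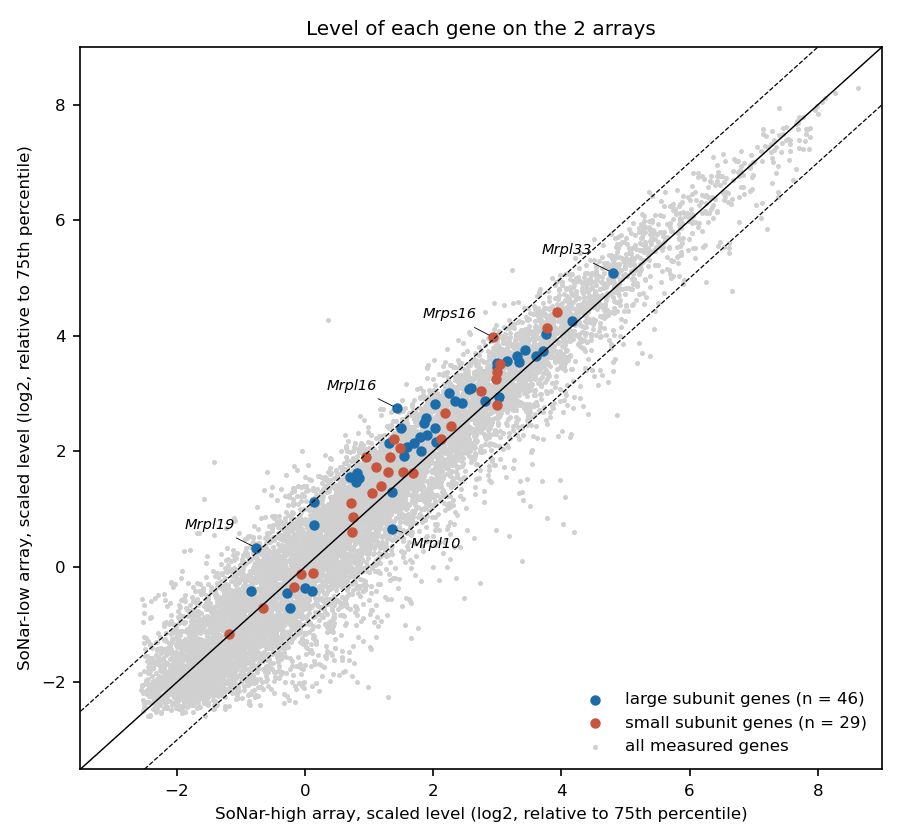
Each gene's scaled level on the SoNar-high array (horizontal axis) is plotted against that on the SoNar-low array (vertical axis), both as log2 relative to the 75th percentile, with all measured genes in grey, a solid line at equality and dashed lines at 2-fold. Most large and small subunit genes lie above the line of equality, with Mrpl16, Mrpl19 and Mrps16 past the 2-fold line and Mrpl10 farthest below equality.

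The 3 genes that were not measured are all of the large subunit. Mrpl1, not well above background in SoNar-high cells, had 22.6 units there, against 56.7 on the SoNar-low array. Its approximate bound was 1.58-fold lower in SoNar-high cells. Mrpl35 had 25.4 in SoNar-high cells, again not well above background, against 45.3 on the SoNar-low array, with an approximate bound of 1.26-fold lower. Each bound sets the scaled signal on the SoNar-low array against the lowest SoNar-high signal that the scanner called well above background, 30.2 units. The bounds are not strict, since a probe of Mrps33 with 32.3 units on the SoNar-high array was not called either. Mrpl21 was not well above background on either array (8.94 in SoNar-high cells and 8.97 in SoNar-low cells) and has no fold.

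Probes printed repeatedly or in pairs show how far single values can be read. The brighter probe of Mrpl50 was printed 10 times. Its spots ran from 290 to 327 on the SoNar-high array and from 545 to 854 on the SoNar-low array. All 10 pairs were negative, with an SD of 0.23 for the difference, while the second probe of this gene gave -0.37. The probe of Mrpl34 had 9 unflagged spot pairs, from 591 to 629 on the SoNar-high and from 774 to 1293 on the SoNar-low array, and all 9 were negative (mean -0.47, SD 0.24). The spot ranges of the arrays did not overlap for either gene. The dim probe of Mrps35 had 72.0 to 91.6 on the SoNar-high and 70.2 to 158 on the SoNar-low array, with 4 of 10 pairs negative (mean -0.01, SD 0.39), so its spots overlapped. Spots varied more on the SoNar-low array for all 3 probes.

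Several measured probes were present for 14 genes. In all of these except Mrpl10 and Mrpl43, the brighter probe, which represents the gene, gave the more negative difference. With the median over probes, the medians were -0.40 for the large and -0.22 for the small subunit, in place of -0.42 and -0.26. The signs of the probes were opposite in 3 genes, and in 1 of these the values lay more than 1 apart. The probes of Mrpl22 gave -0.48 and, for a dim probe with 120.1 in SoNar-high cells and 90.4 in SoNar-low cells, 0.66. Those of Mrps23 gave -0.37 and 0.27, and those of Mrpl4 gave -0.22 and 0.14. The probes of Mrpl40 (-0.90 and -0.16) and Mrpl27 (-0.80 and -0.15) shared a sign but lay 0.73 and 0.65 apart, so the sizes given for both rest on the brighter probe. Their medians over probes were -0.53 and -0.47. For Mrpl49 the probes gave -0.80 and -0.26, and for Mrpl50 -0.84 and -0.37. The gene table lists pseudogenes of Mrpl23, Mrpl27, Mrpl48 and Mrps36, and whether the probes of these 4 genes also bind pseudogene transcripts was not tested.

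The difference varied with probe brightness, whose part in it was not tested. In the dimmest 25 of the 75 genes the median was -0.11 and 11 were positive, in the middle 25 it was -0.47 with 1 positive, and in the brightest 25 -0.36 with 2 positive. Within the same ranges of mean signal, all measured genes had medians of -0.05 (4518 genes), -0.20 (1742 genes) and -0.18 (1839 genes). The dimmest 25 held 14 large and 11 small subunit genes and the brightest 17 large and 8 small, so the subunits were not equally bright. Across genes, the correlation of difference and mean signal was -0.48 (Spearman -0.50) over 29 small subunit genes and -0.08 (Spearman 0.14) over 46 large subunit genes, as a description of genes that share both arrays.

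The promoters of these genes were searched for the motifs of 3 factors that are known to bind promoters of mitochondrial genes, NRF1 (a motif of 10 bases, in capitals in the Mrpl45 stretch shown with these results), the ETS factors that include GABPA (CCGGAAGT) and YY1 (AAGATGGC), on both strands. RefSeq windows of build GRCm38.p6, from 250 bases before to 50 after the start, matched 69 of the 78 genes with 75 windows. The NRF1 motif was in 13 of 75 windows (17.3%), against 9.88% of windows of measured genes and 4.60% of all windows. The ETS motif was in 12 (16%), against 8.24% and 3.89%, and the YY1 motif in 12 (16%), against 4.51% and 2.75%. At least 1 of the 3 was in 34 of 75 windows (45.3%), against 20.8% of windows of measured genes and 10.4% of all windows. No match of 1 motif overlapped a match of another, and these counts are a description, not binding.

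Genes with and without the NRF1 or the ETS motif had close medians. As the windows were cut, those with the YY1 motif had a less negative one. The median was -0.37 for 13 measured genes with the NRF1 motif and -0.37 for 53 without it, and -0.33 for 12 genes with the ETS motif and -0.38 for 54 without it. It was -0.12 for 11 genes with the YY1 motif, of which 6 were negative, and -0.37 for 55 without it, of which 47 were negative. The 11 include Mrps11 (0.05), whose match also lies inside Mrpl46 (-0.59), past the edge of that gene's window. The YY1 median therefore depends on which gene of this pair the match is credited to. The following stretches are shown because they bear on named genes, each 5′ to 3′ on the strand of the gene with motif matches in capitals and the last 50 bases from the start onwards. Mrpl45 holds separate NRF1 matches, while Mrps26 holds NRF1 matches that overlap each other and, apart from them, an ETS match. Mrpl42 holds a YY1 match, and Mrpl16, the gene with the most negative difference, none of the searched letters in its window. In this order, the stretches lie at chr11:97315586-97315765 (plus strand), chr2:130563657-130563806 (plus strand), chr10:95501900-95502049 (minus strand) and chr19:11770315-11770464 (plus strand).
Mrpl45: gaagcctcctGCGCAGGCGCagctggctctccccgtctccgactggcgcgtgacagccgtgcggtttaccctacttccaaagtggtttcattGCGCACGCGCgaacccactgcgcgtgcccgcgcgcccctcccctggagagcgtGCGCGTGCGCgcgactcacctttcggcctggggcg
Mrps26: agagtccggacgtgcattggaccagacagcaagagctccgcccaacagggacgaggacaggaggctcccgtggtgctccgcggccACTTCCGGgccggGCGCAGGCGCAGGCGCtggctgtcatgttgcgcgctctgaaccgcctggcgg
Mrpl42: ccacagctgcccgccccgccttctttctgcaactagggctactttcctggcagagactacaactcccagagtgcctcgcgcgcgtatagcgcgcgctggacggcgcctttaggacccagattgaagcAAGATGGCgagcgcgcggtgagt
Mrpl16: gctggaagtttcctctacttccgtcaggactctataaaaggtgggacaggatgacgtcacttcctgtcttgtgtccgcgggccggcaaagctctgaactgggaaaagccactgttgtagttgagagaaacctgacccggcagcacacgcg

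One pair of these genes shares a promoter region. Mrps11 on the plus strand and Mrpl46 on the minus strand of chromosome 7 start head to head with 41 bases between them, and are the only neighbouring pair among the 78 genes in the order of protein-coding genes. Mrpl46 had 206 in SoNar-high cells and 369 in SoNar-low cells (-0.59), whereas Mrps11 had 178 in SoNar-high and 205 in SoNar-low cells (0.05). The values of the pair thus differed by more than the scanner error of either, from a single probe each. The stretch at chr7:78782981-78783180 on the plus strand covers both starts and is shown for that reason, with a YY1 match on the opposite strand in capitals. This match lies inside the annotated span of Mrpl46, past the 50 bases of its window, and was counted for Mrps11 only.
Mrps11: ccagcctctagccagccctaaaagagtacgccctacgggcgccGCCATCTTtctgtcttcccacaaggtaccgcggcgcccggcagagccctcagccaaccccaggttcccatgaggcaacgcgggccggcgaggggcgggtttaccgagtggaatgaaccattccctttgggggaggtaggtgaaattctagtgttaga

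Other genes of mitochondrial gene expression had medians between that of the large subunit and 0, except for translation factors. The counts of these and all later lists stand beside those over all measured genes. Of all measured genes, 55.8% were negative, 4.44% at least 2-fold lower and 5.28% at least 2-fold higher. Of 13 measured translation factors and partners, 10 were negative, 2 were at least 2-fold lower and none at least 2-fold higher, with a median of -0.53. Lrpprc and Slirp, which together stabilise mitochondrial messenger RNAs, were these 2, with 345 in SoNar-high cells and 944 in SoNar-low cells for Lrpprc (-1.20) and 109 in SoNar-high and 279 in SoNar-low cells for Slirp (-1.10). The elongation factor Gfm1 had 738 in SoNar-high cells and 1589.6 in SoNar-low cells (-0.85), and Tufm, also an elongation factor, had 676 in SoNar-high and 664 in SoNar-low (0.28). The release factor Mtrf1l had 111 in SoNar-high and 239 in SoNar-low (-0.86). The initiation factor Mtif2, whose probe was the brightest of this list, had 7341 in SoNar-high and 10511 in SoNar-low (-0.27).

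Of 22 genes of mitoribosome assembly and rRNA modification, 16 were negative and none differed by 2-fold, with a median of -0.24. The rRNA methyltransferase Tfb1m had 119 in SoNar-high cells and 235 in SoNar-low cells (-0.73), Rpusd4, a pseudouridine synthase, had 225 in SoNar-high and 442 in SoNar-low (-0.72), and the GTPase Eral1, which chaperones the small subunit rRNA, had 253 in SoNar-high and 197 in SoNar-low (0.61). Mterf4, a partner of an rRNA methyltransferase, had 56.6 in SoNar-high and 103 in SoNar-low (-0.62), and Trub2, with the brightest probe of this list, had 3257 in SoNar-high and 3798 in SoNar-low (0.03). Of 14 mitochondrial aminoacyl-tRNA synthetases, 9 were negative, and the median was -0.22. Pars2 had 91.0 in SoNar-high and 186 in SoNar-low (-0.78), Rars2 had 368 in SoNar-high and 671 in SoNar-low (-0.62) and Fars2, the brightest, had 600.4 in SoNar-high and 876 in SoNar-low (-0.29). Of 14 genes of mitochondrial DNA transcription, replication and RNA processing, 10 were negative and 1, the transcription factor Tfb2m, passed 2-fold (157 in SoNar-high, 517 in SoNar-low, -1.46), and the median was -0.24. The single-stranded DNA binding protein Ssbp1 had 506 in SoNar-high and 1061 in SoNar-low (-0.82), the tRNA-processing enzyme Elac2 had 217 in SoNar-high and 429 in SoNar-low (-0.73) and Hsd17b10, the brightest, had 1439 in SoNar-high and 1868 in SoNar-low (-0.12). Tfam, which packages mitochondrial DNA, had 519 in SoNar-high cells and 915 in SoNar-low cells (-0.57).

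Of 7 measured regulators of mitochondrial biogenesis, 5 were negative, with a median of -0.10. Gabpa was the member at least 2-fold lower (265 in SoNar-high cells and 666 in SoNar-low cells, -1.07), Yy1 had 282 in SoNar-high and 604 in SoNar-low (-0.85), Esrra had 523 in SoNar-high and 904 in SoNar-low (-0.54), and Nrf1, the brightest, had 672 in SoNar-high and 856 in SoNar-low (-0.10). Of 25 protein import genes, 21 were negative and 2 passed 2-fold, both lower, and their median was -0.37. The chaperonin gene Hspd1 had 3630 in SoNar-high cells and 9625 in SoNar-low cells (-1.15), and Timm21 had 161 in SoNar-high and 392 in SoNar-low (-1.03). Tomm7 had 1046 in SoNar-high and 2387 in SoNar-low (-0.94), and Hspe1, the partner of Hspd1 and the brightest, had 5225 in SoNar-high and 6958 in SoNar-low (-0.16). Gfm1, Tufm, Eral1 and Tfam were named for their roles after their values were seen.

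Set beside the most similar groups, the mitochondrial ribosomal proteins had a more negative median than the cytosolic ones. The 78 cytosolic ribosomal protein genes had a median of -0.16, with 61 negative (78.2%) and 1 past 2-fold, Rps21 (1604 in SoNar-high, 5141 in SoNar-low, -1.43). Rps4x had 2794 in SoNar-high and 6519.6 in SoNar-low (-0.97), Rps19 had 541 in SoNar-high and 1199 in SoNar-low (-0.90) and Rplp2, the brightest, had 47349.6 in SoNar-high and 56128 in SoNar-low (0.01). The 81 measured respiratory chain genes had a median of -0.32, with 68 negative (84.0%), 5 lower and 1 higher by 2-fold or more. The higher one was Ndufa4l2 (102 in SoNar-high, 42.9 in SoNar-low, 1.5), while Ndufb2 had 475 in SoNar-high and 1417 in SoNar-low (-1.32), Uqcrb had 1355 in SoNar-high and 3459 in SoNar-low (-1.10) and Cox6a1, the brightest, had 23171 in SoNar-high and 31286 in SoNar-low (-0.18). When the median over a gene's probes was taken in place of the brightest probe, the cytosolic median became -0.29 and that of all 75 mitochondrial ribosomal protein genes -0.32, so this order rests on small margins. The small subunit alone then had -0.22, less negative than the cytosolic genes. It was also less negative than them after quantile normalization (-0.15 against -0.16) and in the log2 values deposited by the authors (-0.14 against -0.15). In the other settings it was the more negative. These differences between lists were not tested.

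**Figure D3:**
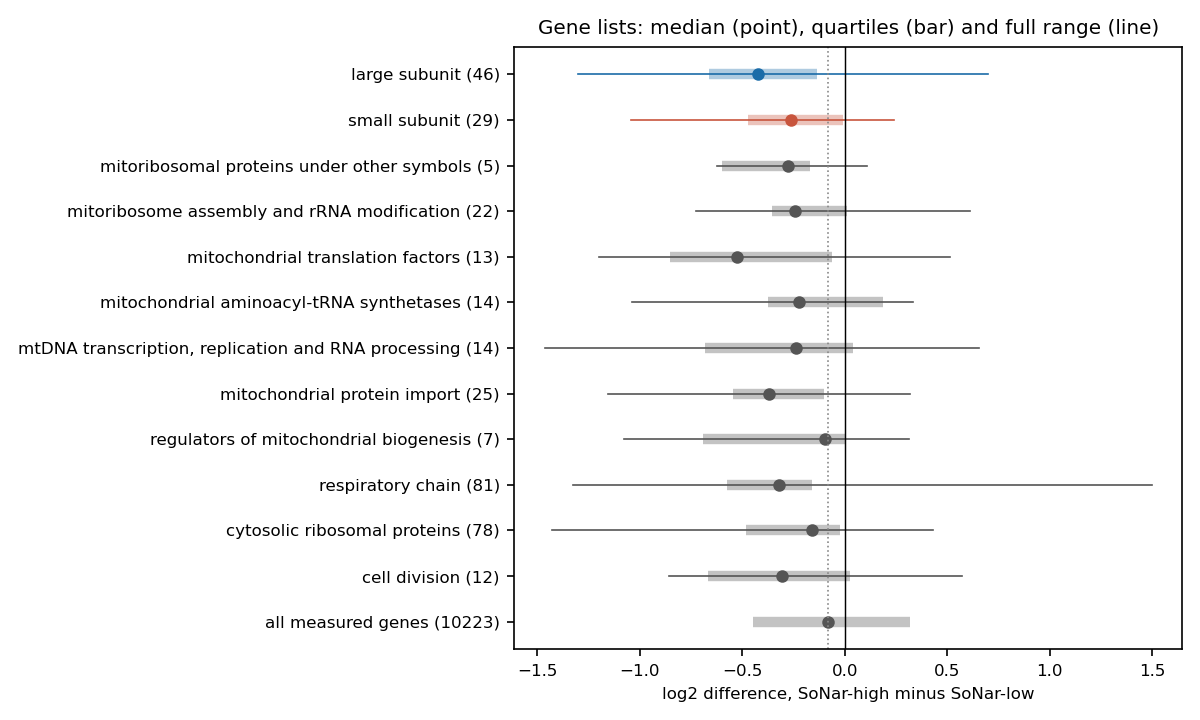
The median (point), quartiles (bar) and full range (line, not drawn for all genes) of the log2 difference of SoNar-high minus SoNar-low are shown for each list, with the number of measured genes in brackets, a solid line at 0 and a dotted line at the median of all genes. The medians of the large subunit (-0.42), translation factors (-0.53) and protein import genes (-0.37) lie left of those of the small subunit (-0.26) and cytosolic ribosomal proteins (-0.16).

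Markers of cell types and of cell division differed in the same comparison. The median differences of the measured markers were 1.27 for erythroid, 2.93 for macrophage, 1.64 for hepatoblast and 2.27 for endothelial genes. They were 0.52 for neutrophil and granulocyte progenitor genes and 0.49 for megakaryocyte genes. For B lymphoid genes the median was -1.39, for T and natural killer genes -2.07 and for stem and progenitor genes -0.87. Of the 6 measured T and natural killer genes, 4 were negative, while Cd3e (0.87) and Nkg7 (0.22) were positive. Summed signals follow the brightest probes, of which Hemgn (-0.43) in the erythroid and Egfl7 (-0.31) in the endothelial list went against their list's median. In units of the 75th percentile, summed over measured markers, 10 erythroid genes had 137 in SoNar-high and 107 in SoNar-low cells (8 at least 2-fold higher), 9 macrophage genes had 102 in SoNar-high and 38.7 in SoNar-low (8 higher) and 8 hepatoblast genes had 73.8 in SoNar-high and 27.2 in SoNar-low (5 higher). The sums were 34.1 in SoNar-high and 21.8 in SoNar-low for 6 endothelial genes (4 higher). For 11 neutrophil and granulocyte progenitor genes the sums were 1186 in SoNar-high and 800.5 in SoNar-low (3 higher). For 6 megakaryocyte genes they were 17.0 in SoNar-high and 13.0 in SoNar-low (1 higher). They were 27.8 in SoNar-high and 79.1 in SoNar-low cells for 10 B lymphoid genes (7 at least 2-fold lower), 10.7 in SoNar-high and 34.0 in SoNar-low for 6 T and natural killer genes (4 lower) and 74.7 in SoNar-high and 118 in SoNar-low for 10 stem and progenitor genes (3 lower). Of 12 cell division genes, 8 were negative and none differed by 2-fold, with a median of -0.30, with Mcm3 (5305 in SoNar-high, 11451 in SoNar-low, -0.86), Cdk1 (271 in SoNar-high, 574 in SoNar-low, -0.83) and Pcna (5769 in SoNar-high, 11000.2 in SoNar-low, -0.68) the most negative and Mcm6 (11630.4 in SoNar-high, 14995 in SoNar-low, -0.11) the brightest. The part of these groups in the values of the mitochondrial ribosomal protein genes was not tested. Defining markers not well above background on at least 1 array, and so not measured, included Sptb and Rhag of the erythroid list. They also included Cd163 and Timd4 of the macrophage, Apoa1 and Ttr of the hepatoblast, and Cd3d, Cd3g and Il2rb of the T and natural killer list.

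The size of the shift depended on how the arrays were scaled. When each array was divided by the 75th percentile of detected probes, the median of all genes moved by more than 0.1, to 0.07, and the split of all genes became 782 higher and 247 lower by 2-fold in place of 540 and 454. The medians then were -0.27 for the large and -0.11 for the small subunit, and since this scaling shifts every gene alike, their distances from the median of all genes are by construction those of the reported scaling, -0.34 and -0.18. With loess against mean signal the median of all genes was 0.02, with 649 higher and 348 lower, and relative to it the large subunit was at -0.23 and the small subunit at -0.11. In all 9 ways of processing, both medians were negative and below the median of all genes, and the large subunit was lower than the small one.

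**Figure D4:**
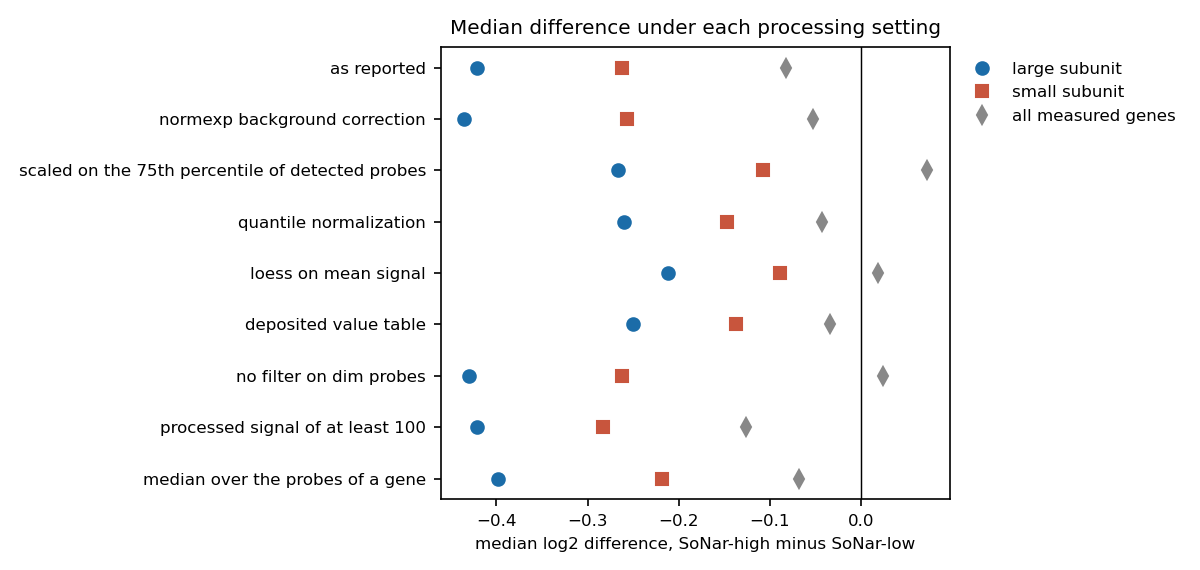
The median log2 difference of SoNar-high minus SoNar-low is shown for large subunit genes (circles), small subunit genes (squares) and all measured genes (diamonds) under the reported and 8 other ways of processing. The large subunit lies left of the small one and both lie left of all genes in every row, while the large subunit median ranges from -0.44 (normexp) to -0.21 (loess).

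Some of these settings cannot change the value of a gene with 1 well-measured probe, such as Mrpl16, Mrpl19 and Mrps16, so they add no support for it. Of the 75 measured genes, 48 were negative in all 9, 31 of them of the large and 17 of the small subunit. The same count was not made over all measured genes, of which 45.2% to 59.2% were negative in single settings. The settings also reuse the same 2 arrays. Mrpl16 was at least 2-fold lower in all 9 (-1.30 to -1.09). Mrpl19 fell short of 2-fold after normexp (-0.79) and with scaling on detected probes (-0.94). Mrps16 fell short of 2-fold in each of the 5 settings that recompute its value (-0.89 to -0.80). Mrpl10 was positive in all 9 (0.66 to 0.86), as were Mrpl17 (0.35 to 0.68), Mrpl37 (0.36 to 0.64) and Mrpl38 (0.35 to 0.53).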

How the data were processed

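Total RNA of sorted SoNar-high and SoNar-low cells was hybridised in 1 colour to 1 Agilent array per group, and groups follow the source names in the labels. Intensities of each spot, raw and processed, with their errors, were deposited by the authors as output of Agilent Feature Extraction, version 11.0.1.1 per the file headers and 9.1 per the submitters' processing notes. The authors also deposited a table of log2 values, and how these were scaled and centred stays unknown. Its columns have medians of 4.80 and 4.80, each correlates at 0.999 with log2 scanner signals of the same sample, and its differences follow the scanner differences at a correlation of 0.966, in the same direction.

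Control spots (43020 others remained) and outlier-flagged spots (225 for SoNar-high and 135 for SoNar-low cells) were left out, and no spot was saturated. Of the non-control spots, 49.4% for SoNar-high and 42.4% for SoNar-low cells were well above background. The log2 processed intensity minus the array's 75th percentile was averaged over the spots of a probe (39429 probes), probes were named by unversioned transcript accession in the RefSeq table of GRCm38.p6 (27234 named), which served for names, neighbours and promoter windows and not for probe positions, since the array design is on mm9, and a gene was represented by the brightest of its measured probes. Alternatives were normexp background correction (limma 3.58.1, offset 50, on the median spot signal), scaling on detected probes, quantile normalization, loess (span 0.3), the deposited table, no filter on dim probes, a processed signal of at least 100, and the median over a gene's probes. The genes named are the 8 most negative and 5 most positive and the 5 brightest per subunit, all past 2-fold, all with only a bound, those whose probes disagree, members of the structural parts, and in related lists those with the 3 largest differences and the brightest; a few others are marked as chosen after their values were seen. One gene that this rule names is not reported here. The genes and lists were chosen with earlier results of these data known. The counting was tested on simulated data.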

Additional observations from a re-analysis of the deposited data

How the results depend on the processing

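A shift of a median is given where it exceeds 0.15, and a count where it differs over 1.5 times. The 0.15 is the median SD for the difference of a repeated spot pair. It serves as a fixed cut and does not measure the spread of a median over genes. The large subunit median of -0.42 moved to -0.27 with scaling on detected probes, -0.26 after quantile normalization, -0.21 after loess and -0.25 in the deposited table, and the small subunit median of -0.26 moved to -0.11 with scaling on detected probes and -0.089 after loess. The difference between the medians of the subunits (-0.16) kept its sign under the 10 alternatives tried for it and ranged from -0.18 to -0.09, the smallest with proteins placed by structure, while scaling on detected probes could not change it. The number of negative genes (61 of 75) ranged from 50 after loess to 63 of 78 with dim probes kept. The 3 genes at least 2-fold lower became 1 after normexp and 1 with scaling on detected probes, and at 1.5-fold there were 18 lower and 1 higher. Of 599 values of single genes under other settings, 257 moved by more than 0.15, and the other 342 include values that a setting could not change. The 257 include every gene under scaling on detected probes, which by construction shifts all genes alike by slightly more than this cut. Over all genes, 540 higher and 454 lower by 2-fold became 251 and 257 after normexp, 782 and 247 with scaling on detected probes, 2476 and 659 with dim probes kept and 329 and 314 with signals of at least 100. The cause of these shifts was not tested. With 1 array per group no array could be left out, and the signal over background limits genes such as Mrpl1, Mrpl21 and Mrpl35. No paired analysis was possible because each group has 1 array and no test was made.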
